A study of Mus musculus with 12 samples.

Results

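The genes described here set, copy, remove or protect methyl groups on cytosine in DNA. They were chosen by symbol as Dnmt3a, Dnmt3b, Dnmt3l, Dnmt1, Uhrf1, Tet1, Tet2, Tet3, Tdg and Zfp57, which are 10 of the 53379 genes in the deposited tables. All 10 passed the filter on low counts that left 17884 genes for testing, and they held 322 to 16363 estimated counts per library.

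RNA was sequenced from mouse ZHBTc4 embryonic stem cells of the 129/Ola strain. ZHBTc4 cells lack working native copies of Pou5f1 and live on a transgene for its product, the pluripotency factor Oct4, whose transcription stops when doxycycline is added. Cells with a knockout of Phf6, which encodes a chromatin-binding protein, were set against wild type (WT) cells, so WT cells also carry the disrupted Pou5f1 copies and the transgene. The 6 groups of 2 libraries were Phf6 knockout (KO) and WT cells given doxycycline for 2 days, KO and WT cells differentiated for 4 days with all-trans retinoic acid and no LIF (leukemia inhibitory factor, which holds off differentiation), and untreated KO and WT cells kept with LIF. The doxycycline dose is 0.5 µg/ml in the sample labels and 0.5 mg/ml in their protocol text. The protocol text gives retinoic acid as 10 mM. Cells were grown on fibroblast feeders in the first passages and without feeders later. The labels do not say whether the replicates were separate cultures or how many KO clones were used, and the spread behind each p-value is that of these libraries alone, which may be technical. RNA of the retinoic acid libraries went through another extraction kit than the rest. Kit, lack of LIF and retinoic acid cannot be told apart where those libraries are set against untreated ones. In such comparisons below, retinoic acid stands for all of these together.

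Methyl groups on CpG dinucleotides are set by the de novo methyltransferases Dnmt3a and Dnmt3b, which the catalytically inactive relative Dnmt3l stimulates. Uhrf1 binds hemimethylated DNA behind the replication fork and brings in Dnmt1, which copies the pattern to the new strand. Tet enzymes oxidise methylcytosine, the glycosylase Tdg excises oxidised bases for repair, and the zinc finger protein Zfp57 binds methylated imprinting control regions and keeps their methylation in embryonic stem cells.

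The start regions of the genes differ in their CpG content. With doxycycline, Tet1, Tet2 and Zfp57 had the largest falls of the 10 genes and Dnmt3b and Tet3 were those that rose, so 1 RefSeq window of each (GRCm38.p6, 250 bases before to 50 after a transcription start) is shown 5′ to 3′ on the strand of the gene, with every CpG in capitals. The Tet1 window is chr10:62887275-62887574, minus strand, that of Tet2 is chr3:133544341-133544640, minus strand, and that of Tet3 is chr6:83441629-83441928, minus strand. The Dnmt3b window is chr2:153649199-153649498, plus strand, and that of Zfp57, the first of its 3 starts, is chr17:37000913-37001212, plus strand.
Tet1: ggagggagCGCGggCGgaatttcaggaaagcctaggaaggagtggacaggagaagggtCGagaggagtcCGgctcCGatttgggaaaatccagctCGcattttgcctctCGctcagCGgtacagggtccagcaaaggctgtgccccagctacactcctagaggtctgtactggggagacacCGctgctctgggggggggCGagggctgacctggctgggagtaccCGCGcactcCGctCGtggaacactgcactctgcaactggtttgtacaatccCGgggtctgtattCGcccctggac
Tet2: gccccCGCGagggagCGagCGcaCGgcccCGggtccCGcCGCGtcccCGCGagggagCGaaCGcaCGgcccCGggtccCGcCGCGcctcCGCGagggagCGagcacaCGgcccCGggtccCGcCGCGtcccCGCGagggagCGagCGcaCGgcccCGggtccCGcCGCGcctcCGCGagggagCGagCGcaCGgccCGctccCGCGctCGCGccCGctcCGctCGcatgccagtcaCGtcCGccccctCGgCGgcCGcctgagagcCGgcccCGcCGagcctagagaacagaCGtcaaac
Tet3: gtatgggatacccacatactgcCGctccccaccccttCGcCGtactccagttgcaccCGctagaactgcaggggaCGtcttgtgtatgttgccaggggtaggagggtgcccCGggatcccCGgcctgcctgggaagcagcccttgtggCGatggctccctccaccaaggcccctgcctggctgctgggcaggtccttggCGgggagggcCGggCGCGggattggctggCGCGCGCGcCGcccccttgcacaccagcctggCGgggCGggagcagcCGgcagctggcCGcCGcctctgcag
Dnmt3b: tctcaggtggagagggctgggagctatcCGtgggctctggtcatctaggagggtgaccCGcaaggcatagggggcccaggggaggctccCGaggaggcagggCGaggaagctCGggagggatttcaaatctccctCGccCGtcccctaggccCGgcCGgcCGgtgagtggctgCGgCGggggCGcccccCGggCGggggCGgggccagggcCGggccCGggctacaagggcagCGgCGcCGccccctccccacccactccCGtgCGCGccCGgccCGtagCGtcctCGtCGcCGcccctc
Zfp57: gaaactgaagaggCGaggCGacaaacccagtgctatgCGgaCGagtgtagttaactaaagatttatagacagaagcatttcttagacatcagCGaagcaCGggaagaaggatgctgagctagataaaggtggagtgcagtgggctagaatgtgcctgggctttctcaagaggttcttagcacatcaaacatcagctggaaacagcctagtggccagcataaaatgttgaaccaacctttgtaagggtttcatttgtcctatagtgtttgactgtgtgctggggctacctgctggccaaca

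The Tet2 window held 57 CpG, more than 99.85% of the 32851 RefSeq windows, whose median was 7. The Dnmt3b window held 30, that of Tet3 22 and that of Tet1 17. The starts used for Tet1 (62887324) and Tet3 (83441678) lie inside the gene spans given below, whose 5′ ends are at 62908996 and 83459084. That of Tet2 (133544390) lies inside its span as well, nearer to the 5′ end at 133545139. The Zfp57 window, with 6 CpG, lay below that median, and the other Zfp57 windows held 9 and 4. All 10 genes were matched, with 19 windows in all. Dnmt3a had 46, 47 and 18 CpG in its 3 windows, and Dnmt3l 6, 4 and 3. Both strands of the 19 windows were searched for TTTCCCGC and TTTGGCGC (E2F type), ATGCAAAT (octamer) and the direct repeat of AGGTCA with a 5-base gap (DR5, retinoic acid receptor type), which occur in 1.07%, 0.514%, 1.74% and 0.00913% of the 32851 windows. The single match was TTTGGCGC at position 34 after a Dnmt1 start (chr9:20952574-20952873, minus strand), and it overlapped no other match.

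Libraries held 15799517 to 21441996 counts. Phf6 had 7.38 and 8.19 CPM (counts scaled to the library size with TMM factors) in KO doxycycline libraries, against 35.1 and 29.9 in WT doxycycline libraries. In the retinoic acid libraries it had 5.90 and 5.96 in KO and 40.3 and 40.7 in WT, and without treatment 4.49 and 6.50 in KO and 42.8 and 40.2 in WT, so the KO libraries were lower in each condition. Pou5f1 had 13.0 and 14.3 CPM in KO and 34.0 and 46.3 in WT doxycycline libraries, 976 and 989 in KO and 973 and 1081 in WT retinoic acid libraries, and 1196 and 1193 in KO and 1031 and 1013 in WT untreated libraries. Summed TPM (a level per transcript length) of 14 pluripotency genes was 405 and 421 in KO and 536 and 588 in WT doxycycline libraries, 2104 and 2132 in KO and 2878 and 3023 in WT retinoic acid libraries, and 5651 and 5809 in KO and 5031 and 5148 in WT untreated libraries. In the retinoic acid libraries Pou5f1 alone held 1493 and 1502 TPM of that sum in KO and 1447 and 1595 TPM in WT, and the median log2 change of the 14 genes with retinoic acid was -3.67 in KO and -2.00 in WT. The 12 trophectoderm genes summed to 1509 and 1520.0 in KO and 2255 and 2568 TPM in WT doxycycline libraries, against 64.2 and 66.6 in KO and 92.6 and 96.2 in WT untreated libraries. The 8 primitive endoderm genes summed to 563 and 593 in KO and 252 and 282 TPM in WT retinoic acid libraries, against 3.74 and 4.45 in KO and 4.09 and 4.45 in WT untreated ones. The 10 retinoic acid response genes summed to 1174 and 1175 in KO and 839 and 872 TPM in WT retinoic acid libraries, against 26.3 and 31.2 in KO and 20.7 and 21.2 in WT untreated ones. Trophectoderm genes also stood above untreated with retinoic acid, at 557 and 585 TPM in KO and 482 and 522.8 in WT libraries. With doxycycline, primitive endoderm genes summed to 15.5 and 17.1 TPM in KO and 23.1 and 26.4 in WT libraries. Retinoic acid response genes summed there to 81.3 and 88.5 TPM in KO and 101.4 and 103.5 in WT libraries, and both lists were above untreated. Feeder fibroblast genes (8) summed to 6.47 to 40.1 TPM and neural genes (7) to 30.1 to 80.6 TPM over the 12 libraries. In bulk RNA, fewer cells of a type and less RNA per cell cannot be told apart, and the part of these cell states in the values below was not tested.

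Both treatments lowered most of the genes on counts, and the KO moved them in different directions by condition. With doxycycline, 2 of 10 rose and 8 fell in KO cells at an adjusted p under 0.05, where 62.3% of all genes tested were called, 31.2% higher and 31.2% lower. In WT cells 2 of 10 rose and 6 fell with doxycycline, where 63% of all genes tested were called, 31.8% higher and 31.3% lower. The genes thus fell more often than they rose, while all genes split evenly. With retinoic acid, 1 of 10 rose and 8 fell in KO cells, where 75.5% of all genes tested were called, 40.9% higher and 34.6% lower. In WT cells 1 of 10 rose and 9 fell, where 73.9% of all genes tested were called, 41% higher and 32.9% lower, and of these falls those of Dnmt1 and Tdg in both genotypes and of Dnmt3b in KO have a positive value in log2(TPM + 1), as given below. Between genotypes without treatment, 5 of 10 were higher and 2 lower in KO than in WT cells, where 30% of all genes tested were called, 15.2% higher and 14.9% lower. With doxycycline the same contrast gave 2 higher and 6 lower in KO, where 37% of all genes tested were called, 17.9% higher and 19.1% lower. With retinoic acid it gave 2 higher and 4 lower, where 38.8% of all genes tested were called, 18.8% higher and 20% lower.

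The size of the changes is given beside that of all genes tested, with no test of the members as a group. The median absolute log2 change with doxycycline was 1.09 over the members and 0.53 over all genes tested in KO cells, and 1.16 over the members and 0.54 over all genes tested in WT cells. With retinoic acid it was 0.98 over the members and 0.76 over all genes tested in KO cells, and 0.87 over the members and 0.70 over all genes tested in WT cells. Between KO and WT it was 0.24 over the members and 0.24 over all genes tested without treatment, 0.28 over the members and 0.28 over all genes tested with doxycycline, and 0.24 over the members and 0.26 over all genes tested with retinoic acid. Between genotypes the members moved by about as much as the genes tested as a whole. Single members are given below by role. The comparisons of KO and WT with each treatment and the treatment comparisons share libraries, and their values are set side by side only.

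**Figure D1:**
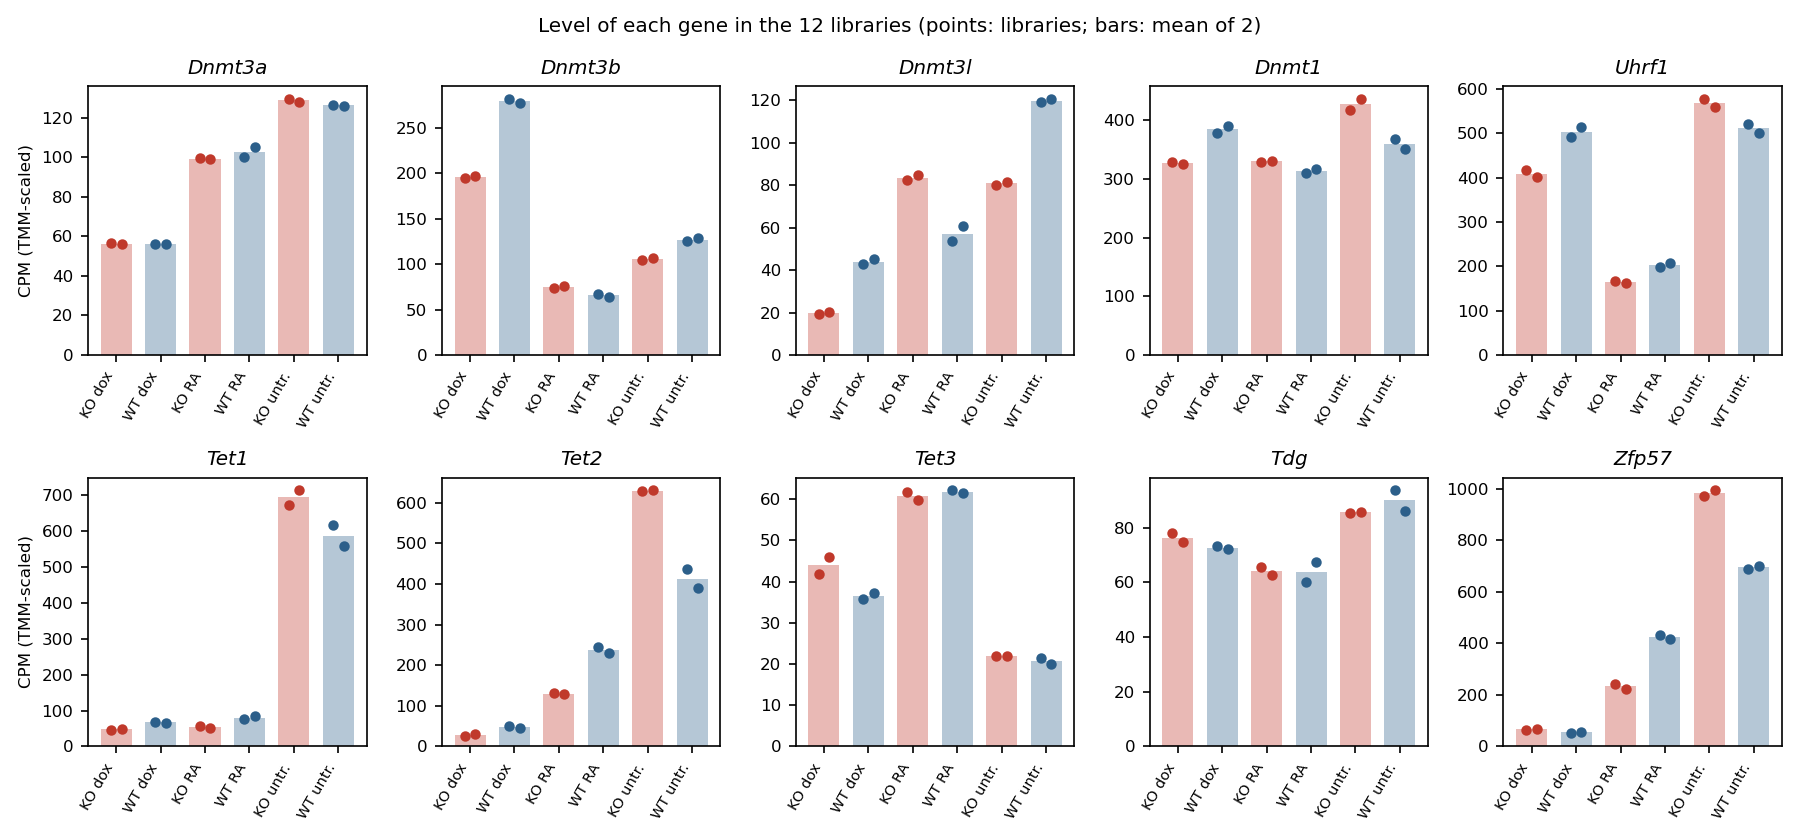
Level of each gene in CPM (y axes, starting at 0) in the 12 libraries, with points for libraries, bars for the mean of 2 libraries, red for KO and blue for WT. Tet1, Tet2 and Zfp57 are highest in the untreated groups, Dnmt3b in the doxycycline groups and Tet3 in the retinoic acid groups.

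The de novo enzymes moved in opposite directions with doxycycline, where Dnmt3b rose and Dnmt3a and Dnmt3l fell in both genotypes. Dnmt3b (ENSMUSG00000027478.15, chromosome 2, 153649450 to 153687730 in GRCm38, as for all positions below), the de novo enzyme of the early epiblast, had 195 and 197 CPM in KO and 282 and 278 CPM in WT doxycycline libraries. It had 73.6 and 76.1 in KO and 67.6 and 63.8 in WT retinoic acid libraries, and 104 and 107 in KO and 126 and 128 in WT untreated libraries. All 4 doxycycline libraries were above all 8 others, and KO libraries were below WT libraries with doxycycline and without treatment and above them with retinoic acid. The log2 change with doxycycline was 0.89 ± 0.05 (edgeR adjusted p = 3e-15) in KO cells and 1.14 ± 0.05 (edgeR adjusted p = 5.4e-18) in WT cells. Set against WT, KO cells had less Dnmt3b with doxycycline, by a log2 change of -0.52 ± 0.05 (edgeR adjusted p = 7e-10), and without treatment, by -0.27 ± 0.05 (edgeR adjusted p = 0.00016).

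Retinoic acid lowered Dnmt3b in WT cells, with a log2 change of -0.95 ± 0.05 (edgeR adjusted p = 1.2e-15). In KO cells its change was -0.50 ± 0.05 (edgeR adjusted p = 1.3e-09), a call that turns on the scale, since the difference was 0.08 in log2(TPM + 1) (limma adjusted p = 0.24). KO cells had slightly more Dnmt3b than WT cells with retinoic acid, by 0.19 ± 0.05 (edgeR adjusted p = 0.0058). The last call was lost without replicate 2 of WT retinoic acid (0.15, edgeR adjusted p = 0.09) or without replicate 2 of KO retinoic acid (0.16, edgeR adjusted p = 0.076).

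Dnmt3a (ENSMUSG00000020661.15, chromosome 12, 3806007 to 3914443) encodes the other catalytic de novo enzyme. It had 56.8 and 55.9 CPM in KO and 56.0 and 56.0 in WT doxycycline libraries. With retinoic acid it had 99.5 and 99.2 in KO and 100.2 and 105 in WT libraries, and 129.5 and 128 in KO and 126 and 126 in WT libraries without treatment. The 3 conditions were apart and the genotypes were close within each. Doxycycline changed it by -1.19 ± 0.05 (edgeR adjusted p = 1.6e-17) in KO and by -1.17 ± 0.05 (edgeR adjusted p = 2.4e-17) in WT cells, and the difference between these responses was -0.02 ± 0.08 (edgeR adjusted p = 0.91). Retinoic acid changed it by -0.37 ± 0.05 (edgeR adjusted p = 1.3e-07) in KO and by -0.30 ± 0.05 (edgeR adjusted p = 4.5e-06) in WT cells. The log2 change of KO against WT was 0.01 ± 0.06 with doxycycline, -0.05 ± 0.05 with retinoic acid and 0.03 ± 0.05 without treatment, none of them past the threshold (edgeR adjusted p = 0.93, 0.5 and 0.74). The retinoic acid value depends on transcript length, which is taken up below.

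Dnmt3l (ENSMUSG00000000730.13, chromosome 10, 78041947 to 78063622), the stimulating partner, had the widest range between genotypes among the Dnmt genes. It had 19.2 and 20.2 CPM in KO and 42.7 and 45.3 CPM in WT doxycycline libraries. In the retinoic acid libraries it had 82.4 and 84.9 in KO and 53.5 and 61.0 in WT, and in the untreated libraries 80.2 and 81.6 in KO and 119 and 121 in WT. KO libraries were below WT libraries with doxycycline and without treatment, and above them with retinoic acid. KO against WT, the change was -1.16 ± 0.08 (edgeR adjusted p = 9.5e-13) with doxycycline, 0.55 ± 0.06 (edgeR adjusted p = 2.4e-08) with retinoic acid and -0.57 ± 0.06 (edgeR adjusted p = 1.6e-08) without treatment. Doxycycline lowered Dnmt3l 4.11-fold in KO and 2.72-fold in WT cells, log2 changes of -2.04 ± 0.07 (edgeR adjusted p = 7.8e-20) in KO and -1.44 ± 0.06 (edgeR adjusted p = 8.9e-18) in WT cells. The fall was larger in KO cells, by a difference given further on. Retinoic acid lowered Dnmt3l in WT cells, with a log2 change of -1.07 ± 0.06 (edgeR adjusted p = 2.3e-15). In KO cells the retinoic acid value was 0.05 ± 0.06 (edgeR adjusted p = 0.48) on counts and 0.57 in log2(TPM + 1) (limma adjusted p = 3.6e-05). The responses of KO and WT to retinoic acid differed by 1.12 ± 0.08 (edgeR adjusted p = 6.5e-11) (KO minus WT, as for all differences between responses below).

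Dnmt3a and Dnmt3l overlap exons of the opposite-strand genes Dnmt3aos and Aire, as Tet2 does with Gm42567 and Tdg with Glt8d2. The strand setting of the counting is not given in the sources used here. Estimated counts of Dnmt3a, Dnmt3l and Tet2 were whole in all 12 libraries, so no division of their reads with other genes shows. Those of Tdg were whole in none of the 12, and which genes shared its reads cannot be seen. Whether antisense reads were counted with any of these genes was not tested. Per length, Dnmt3b made up 66.9 and 67.6% of the summed TPM of the 3 Dnmt3 genes in KO and 64.9 and 64.0% in WT doxycycline libraries. Its share was 21.8 and 22.1% in KO and 24.6 and 21.9% in WT retinoic acid libraries, and 24.0 and 24.2% in KO and 22.6 and 22.1% in WT untreated libraries. The ratio of Dnmt3b to Dnmt3a in TPM was 3.94 and 4.59 in KO and 5.95 and 5.82 in WT doxycycline libraries, against 0.777 and 0.816 in KO and 0.934 and 0.962 in WT untreated libraries. Dnmt3a was thus the higher of the pair without treatment and Dnmt3b with doxycycline, in every library. Dnmt3l held the largest of the 3 shares in both untreated groups and both retinoic acid groups, 58.4 and 58.9% in KO and 45.6 and 48.8% in WT retinoic acid libraries.

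**Figure D2:**
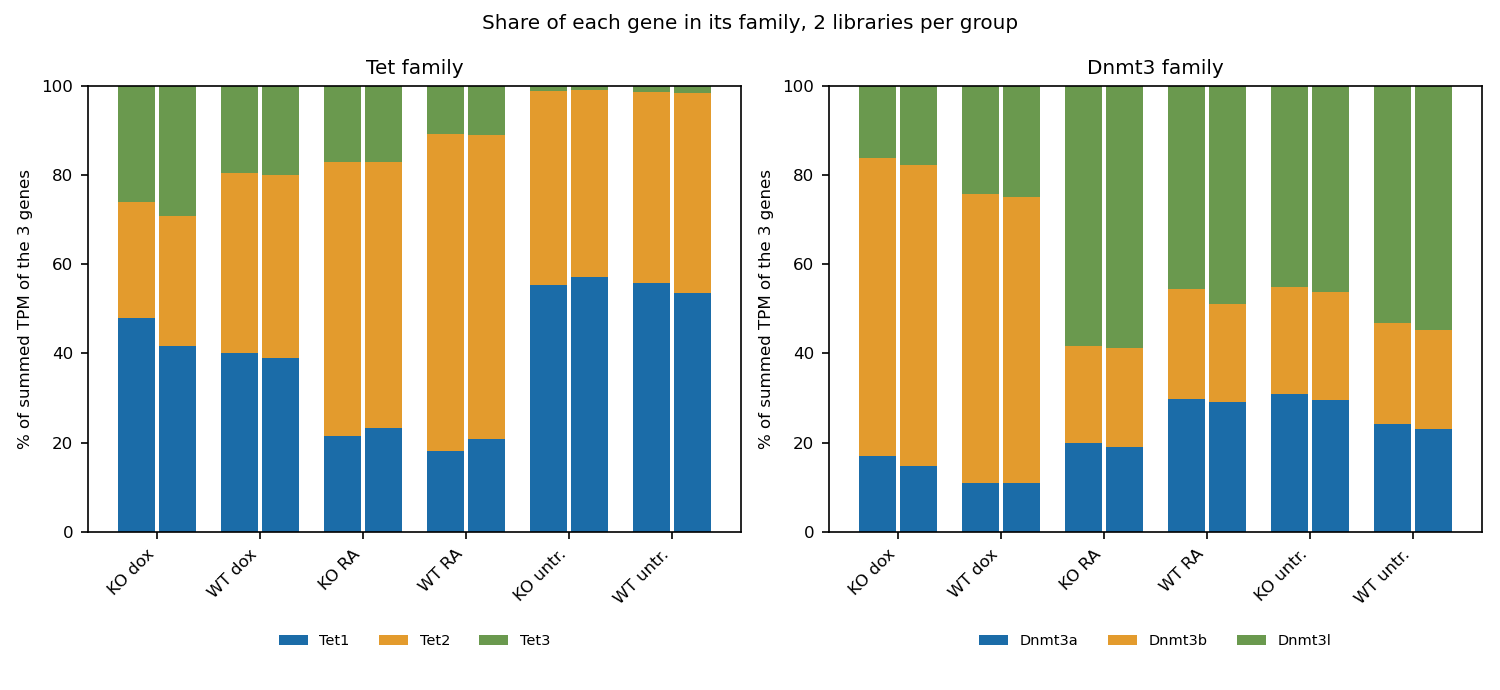
Share of each gene in the summed TPM of the 3 Tet genes (left) and the 3 Dnmt3 genes (right), in percent, with 1 bar per library and 2 per group. Dnmt3b takes 64.0 to 67.6% of the Dnmt3 sum in the doxycycline libraries, and Tet3 takes 0.958 to 1.47% of the Tet sum without treatment and more in every treated library.

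Of the maintenance pair, Dnmt1 changed less with retinoic acid on counts than Uhrf1. Dnmt1 (ENSMUSG00000004099.16, chromosome 9, 20907209 to 20959888) had no log2 change beyond 0.38 in size with either treatment on counts. It had 329 and 326 CPM in KO and 379 and 390.1 CPM in WT doxycycline libraries, 329 and 331 in KO and 311 and 316 in WT retinoic acid libraries, and 418 and 437 in KO and 368 and 351 in WT untreated libraries. KO was above WT without treatment and below WT with doxycycline, with no overlap in either. The change of KO against WT was 0.25 ± 0.05 (edgeR adjusted p = 0.00014) without treatment, -0.23 ± 0.05 (edgeR adjusted p = 0.00022) with doxycycline and 0.07 ± 0.05 (edgeR adjusted p = 0.23) with retinoic acid. Doxycycline lowered Dnmt1 in KO cells, with a log2 change of -0.38 ± 0.05 (edgeR adjusted p = 4.1e-08), whereas the WT value was 0.10 ± 0.05 (edgeR adjusted p = 0.071), and the responses differed by -0.48 ± 0.07 (edgeR adjusted p = 3.8e-06). With retinoic acid the change was -0.37 ± 0.05 (edgeR adjusted p = 4.5e-08) in KO and -0.20 ± 0.05 (edgeR adjusted p = 0.00048) in WT cells on counts, but 0.14 in KO (limma adjusted p = 0.034) and 0.30 in WT cells in log2(TPM + 1) (limma adjusted p = 0.00052), so its direction turns with the scale. On that scale the median of all genes tested moved by 0.42 in KO and 0.43 in WT cells with retinoic acid, against 0.10 and 0.12 in the count fit.

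Uhrf1 (ENSMUSG00000001228.14, chromosome 17, 56303321 to 56323486), the reader of hemimethylated DNA, fell with retinoic acid and held most of its level with doxycycline. It had 417 and 400.4 CPM in KO and 490.4 and 515 in WT doxycycline libraries. With retinoic acid it had 166 and 162 in KO and 197 and 208 in WT libraries, against 577 and 558 in KO and 521 and 501 in WT untreated libraries. The 4 retinoic acid libraries were below all 8 others, and KO was below WT within both treatments. Retinoic acid lowered Uhrf1 3.46-fold in KO and 2.53-fold in WT cells, log2 changes of -1.79 ± 0.05 (edgeR adjusted p = 2.9e-22) in KO and -1.34 ± 0.05 (edgeR adjusted p = 2.4e-19) in WT cells. Doxycycline lowered it in KO cells, with a log2 change of -0.47 ± 0.05 (edgeR adjusted p = 1.3e-09). The WT doxycycline value was -0.02 ± 0.05 (edgeR adjusted p = 0.69), which upper-quartile scaling moved to -0.14 (edgeR adjusted p = 0.012). Treated KO cells held less Uhrf1 than treated WT cells. KO against WT, Uhrf1 changed by -0.30 ± 0.05 (edgeR adjusted p = 1.2e-05) with doxycycline and by -0.30 ± 0.05 (edgeR adjusted p = 1.9e-05) with retinoic acid. The untreated KO value of 0.15 ± 0.05 (edgeR adjusted p = 0.017) was lost when any of the 4 untreated libraries was left out, with values of 0.11 to 0.17, and likewise with length offsets (0.13, edgeR adjusted p = 0.12) and with no filter on low counts (0.14, edgeR adjusted p = 0.061).

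Per length, Uhrf1 stood above Dnmt1 in the doxycycline and untreated groups, with TPM ratios of 1.94 and 1.91 in KO and 2.02 and 2.06 in WT doxycycline libraries and 2.19 and 2.02 in KO and 2.26 and 2.24 in WT untreated libraries. In retinoic acid the ratio was 0.848 and 0.776 in KO and 1.03 and 1.11 in WT libraries, so the pair had changed its order in KO. Genes of DNA replication also fell. Of 15 S-phase genes, 14 fell with retinoic acid in KO and 14 in WT cells, and 15 fell with doxycycline in KO and 11 in WT cells, where 1 rose. Of all genes tested, 34.6% fell with retinoic acid in KO and 32.9% in WT cells, and 31.2% with doxycycline in KO and 31.3% in WT cells. Their summed TPM was 1594 and 1610.0 in KO and 1910.0 and 1963 in WT retinoic acid libraries, 1940.0 and 2005 in KO and 2279 and 2302 in WT doxycycline libraries, and 2668 and 2671 in KO and 2786 and 2861 in WT untreated libraries. The part of replication in the Uhrf1 result was not tested. Uhrf1 and Tdg had estimated counts that were not whole in all 12 libraries and Dnmt3b in 9, so some of their reads were shared with other genes and divided by model.

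**Figure D3:**
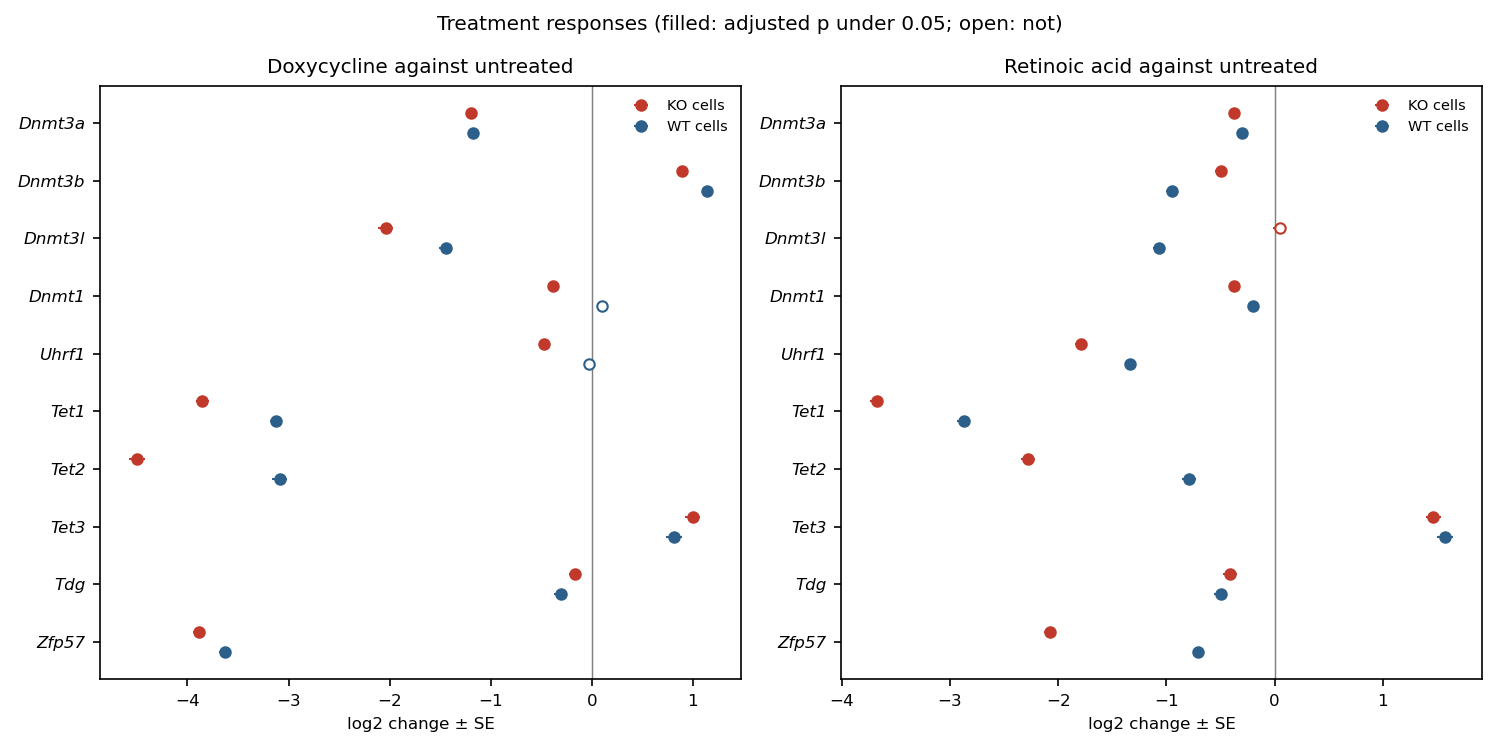
Log2 change ± SE of each gene with doxycycline (left) and retinoic acid (right) against untreated cells, with KO in red above WT in blue, and open points for values not past the threshold. In doxycycline Dnmt3b and Tet3 lie right of 0 in both genotypes and Tet1, Tet2 and Zfp57 lie at -3.09 or lower. The retinoic acid values of Dnmt1 and Tdg in both genotypes and of Dnmt3b in KO, plotted left of 0, change sign in log2(TPM + 1).

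The Tet genes split. Tet1 and Tet2, the Tet genes of embryonic stem cells, fell with both treatments, and Tet3, which is low in these cells, rose with both. Tet1 (ENSMUSG00000047146.17, chromosome 10, 62804570 to 62908996) had 47.1 and 48.8 CPM in KO and 68.2 and 66.1 CPM in WT doxycycline libraries. It had 55.8 and 52.5 in KO and 76.4 and 83.7 in WT retinoic acid libraries, and 673 and 713 in KO and 615 and 557 in WT untreated libraries. All treated libraries were below the untreated ones, and KO was below WT in each treatment and above WT without it. Doxycycline lowered Tet1 14.4-fold in KO and 8.74-fold in WT cells, log2 changes of -3.85 ± 0.06 (edgeR adjusted p = 1.1e-27) in KO and -3.13 ± 0.06 (edgeR adjusted p = 5.1e-26) in WT cells. Retinoic acid lowered it 12.8-fold in KO and 7.33-fold in WT cells, log2 changes of -3.68 ± 0.06 (edgeR adjusted p = 2.6e-27) in KO and -2.87 ± 0.06 (edgeR adjusted p = 4e-25) in WT cells. Both falls were larger in KO than in WT cells. The responses differed by -0.72 ± 0.08 (edgeR adjusted p = 2.6e-07) for doxycycline and by -0.80 ± 0.08 (edgeR adjusted p = 2.1e-08) for retinoic acid. KO against WT, the change was -0.48 ± 0.07 (edgeR adjusted p = 8.8e-07) with doxycycline, -0.56 ± 0.06 (edgeR adjusted p = 2.5e-08) with retinoic acid and 0.24 ± 0.05 (edgeR adjusted p = 0.00073) without treatment.

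The Tet1 values between genotypes depend on transcript length. RSEM gives each gene an abundance-weighted mean length of its transcripts, which for Tet1 was 6409 and 7688 bases in KO and 9507 and 9422 in WT doxycycline libraries. It was 7608 and 6670 in KO and 7689 and 7705 in WT retinoic acid libraries, and 5948 and 5875 in KO and 7460 and 8148 in WT untreated libraries. KO libraries were shorter than WT libraries in all 3 conditions, a measure with no test here. The annotation lists 10 Tet1 transcripts, 2 of 13986 and 14369 bases and 8 of 361 to 1505, so a shorter mean means a larger estimated share of the short ones. With effective lengths as offsets, KO against WT in doxycycline was -0.04 (edgeR adjusted p = 0.81) and the call was lost, and without treatment it was 0.64 (edgeR adjusted p = 0.00016). In TPM, Tet1 had 10.0 and 9.03 in KO and 9.62 and 9.43 in WT doxycycline libraries, which overlap, and 143 and 157 in KO and 104 and 83.2 in WT untreated libraries. On counts the untreated call was lost without replicate 2 of untreated WT (0.16, edgeR adjusted p = 0.07).

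**Figure D4:**
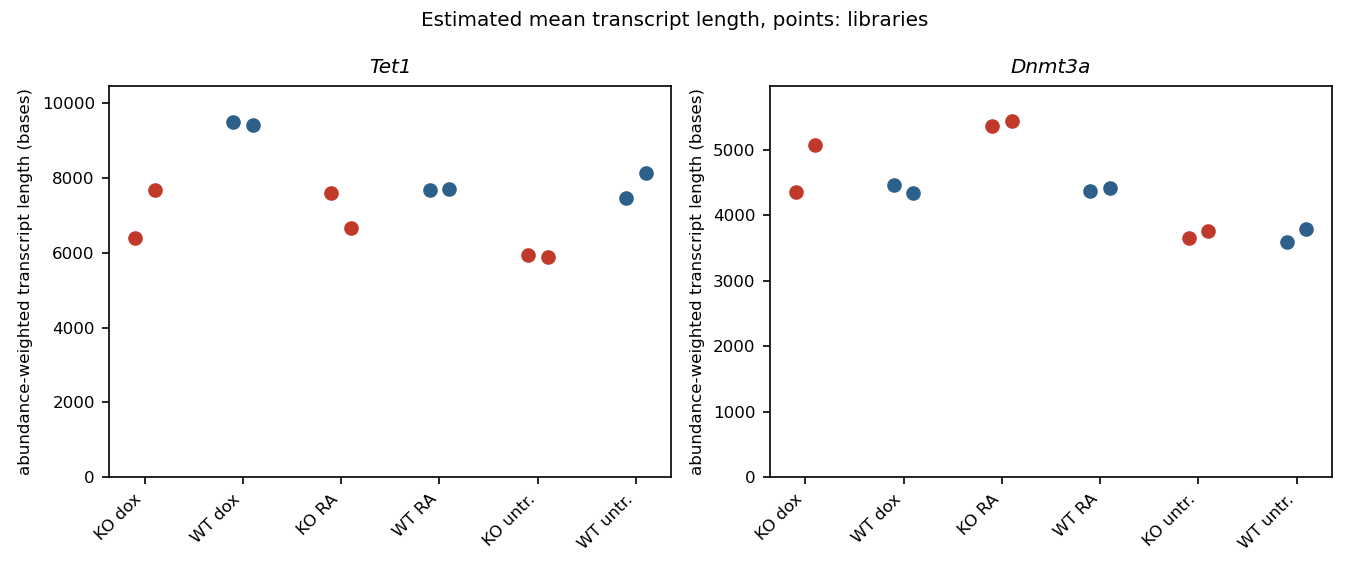
Abundance-weighted mean transcript length in bases (y axes, starting at 0) of Tet1 (left) and Dnmt3a (right), 1 point per library, red for KO and blue for WT. Tet1 is shorter in untreated KO (5948 and 5875 bases) than in untreated WT libraries (7460 and 8148 bases), and Dnmt3a is longest in KO retinoic acid libraries.

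Tet2 (ENSMUSG00000040943.12, chromosome 3, 133463679 to 133545139) fell further in KO than in WT cells with both treatments. It had 25.1 and 30.7 CPM in KO and 51.6 and 46.0 CPM in WT doxycycline libraries. It had 131 and 128 in KO and 246 and 231 in WT retinoic acid libraries, and 628 and 631 in KO and 437 and 389.7 in WT untreated libraries. The 6 groups did not overlap, and KO was above WT without treatment and below WT with either treatment. Doxycycline lowered it 22.6-fold in KO and 8.49-fold in WT cells, log2 changes of -4.50 ± 0.08 (edgeR adjusted p = 3.7e-20) in KO and -3.09 ± 0.07 (edgeR adjusted p = 4.9e-18) in WT cells. Retinoic acid lowered it 4.86-fold in KO and 1.73-fold in WT cells, log2 changes of -2.28 ± 0.07 (edgeR adjusted p = 1e-16) in KO and -0.79 ± 0.07 (edgeR adjusted p = 1.3e-09) in WT cells. In WT that value was -0.17 in log2(TPM + 1) and no longer past the threshold (limma adjusted p = 0.098). Both falls were again larger in KO cells. The responses of KO and WT differed by -1.41 ± 0.11 (edgeR adjusted p = 1.6e-08) for doxycycline and -1.49 ± 0.09 (edgeR adjusted p = 6.2e-10) for retinoic acid, the most negative differences among the 10 genes in either treatment. KO against WT, Tet2 changed by 0.61 ± 0.06 (edgeR adjusted p = 4.4e-07) without treatment, -0.80 ± 0.09 (edgeR adjusted p = 4.1e-07) with doxycycline and -0.88 ± 0.07 (edgeR adjusted p = 3.1e-09) with retinoic acid.

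Tet3 (ENSMUSG00000034832.15, chromosome 6, 83362373 to 83459084) had 41.8 and 46.1 CPM in KO and 35.7 and 37.2 CPM in WT doxycycline libraries. In the retinoic acid libraries it had 61.7 and 59.8 in KO and 62.2 and 61.5 in WT, and in the untreated libraries 22.0 and 21.9 in KO and 21.4 and 20.1 in WT. Every treated library was above every untreated one, and the genotypes overlapped with retinoic acid. Doxycycline raised Tet3 2.00-fold in KO and 1.76-fold in WT cells, log2 changes of 1.00 ± 0.07 (edgeR adjusted p = 2e-12) in KO and 0.82 ± 0.08 (edgeR adjusted p = 2.6e-10) in WT cells. Retinoic acid raised it 2.76-fold in KO and 2.98-fold in WT cells, log2 changes of 1.47 ± 0.07 (edgeR adjusted p = 8.3e-17) in KO and 1.58 ± 0.07 (edgeR adjusted p = 2.1e-17) in WT cells. Its rise did not differ between genotypes past the threshold. The responses of KO and WT differed by 0.18 ± 0.11 (edgeR adjusted p = 0.27) for doxycycline and -0.11 ± 0.10 (edgeR adjusted p = 0.53) for retinoic acid. KO was above WT with doxycycline (0.27 ± 0.07, edgeR adjusted p = 0.0028), a call lost without replicate 2 of KO doxycycline (0.20, edgeR adjusted p = 0.059).

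The sum of the 3 Tet genes per length was 20.9 and 21.7 TPM in KO and 23.9 and 24.1 TPM in WT doxycycline libraries. With retinoic acid it was 62.6 and 61.2 in KO and 97.8 and 92.2 in WT libraries, and without treatment 259 and 276 in KO and 186 and 156 in WT libraries. Untreated KO libraries had the highest sum and KO doxycycline libraries the lowest. Tet3 made up 26.0 and 29.2% of the sum in KO and 19.6 and 19.9% in WT doxycycline libraries, 17.1 and 17.1% in KO and 10.8 and 11.1% in WT retinoic acid libraries, and 1.02 and 0.958% in KO and 1.36 and 1.47% in WT untreated libraries. Tet1 was the leading gene without treatment and Tet2 with retinoic acid in every library, 61.5 and 59.6% of the sum in KO and 71.1 and 68.1% in WT. In KO doxycycline libraries Tet2 and Tet3 stood level, with Tet2 over Tet3 in TPM at 1.00 and 1.00, against 2.05 and 2.06 in WT doxycycline libraries.

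Tdg (ENSMUSG00000034674.18, chromosome 10, 82629828 to 82650799), the glycosylase, was called in no comparison of KO with WT by edgeR or DESeq2. It had 77.9 and 74.6 CPM in KO and 73.3 and 72.0 CPM in WT doxycycline libraries. It had 65.8 and 62.8 in KO and 60.2 and 67.5 in WT retinoic acid libraries, and 85.2 and 85.8 in KO and 93.6 and 86.2 in WT untreated libraries. Untreated libraries were above the treated ones. The log2 change of KO against WT was 0.07 ± 0.06 with doxycycline, 0.01 ± 0.06 with retinoic acid and -0.07 ± 0.06 without treatment, with edgeR adjusted p of 0.41, 0.9 and 0.4. With length offsets the untreated value was 0.10 (edgeR adjusted p = 0.5), also not called. Doxycycline changed it by -0.17 ± 0.06 (edgeR adjusted p = 0.02) in KO and -0.31 ± 0.06 (edgeR adjusted p = 7.1e-05) in WT cells. The KO call was lost without KO doxycycline replicate 2 (-0.13) or without either untreated KO library (-0.17 and -0.16). On counts retinoic acid changed Tdg by -0.41 ± 0.06 (edgeR adjusted p = 8.2e-07) in KO and -0.50 ± 0.06 (edgeR adjusted p = 2.8e-08) in WT cells, but in log2(TPM + 1) by 0.02 in KO (limma adjusted p = 0.85) and 0.15 in WT cells (limma adjusted p = 0.17), so the direction turns with the scale.

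Zfp57 (ENSMUSG00000036036.15, chromosome 17, 37001163 to 37010635), the protector of imprints, had the highest TPM of the 10 genes in untreated cells. It had 64.7 and 68.3 CPM in KO and 54.3 and 57.6 CPM in WT doxycycline libraries. It had 242 and 224 in KO and 433 and 419 in WT retinoic acid libraries, and 974 and 995 in KO and 689 and 701 in WT untreated libraries. The 6 groups did not overlap, and KO was above WT with doxycycline and without treatment and below WT with retinoic acid. Doxycycline lowered Zfp57 14.8-fold in KO and 12.4-fold in WT cells, log2 changes of -3.89 ± 0.06 (edgeR adjusted p = 1.1e-28) in KO and -3.63 ± 0.06 (edgeR adjusted p = 5.3e-28) in WT cells. Retinoic acid lowered it 4.22-fold in KO and 1.63-fold in WT cells, log2 changes of -2.08 ± 0.05 (edgeR adjusted p = 1.4e-23) in KO and -0.71 ± 0.05 (edgeR adjusted p = 3.2e-13) in WT cells. The WT value with retinoic acid was -0.20 in log2(TPM + 1) (limma adjusted p = 0.0041). The fall with retinoic acid was larger in KO cells, and the responses differed by -1.37 ± 0.07 (edgeR adjusted p = 1.8e-14). KO against WT, Zfp57 changed by 0.50 ± 0.05 (edgeR adjusted p = 4.2e-09) without treatment, 0.25 ± 0.06 (edgeR adjusted p = 0.0015) with doxycycline and -0.87 ± 0.05 (edgeR adjusted p = 6.8e-14) with retinoic acid.

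**Figure D5:**
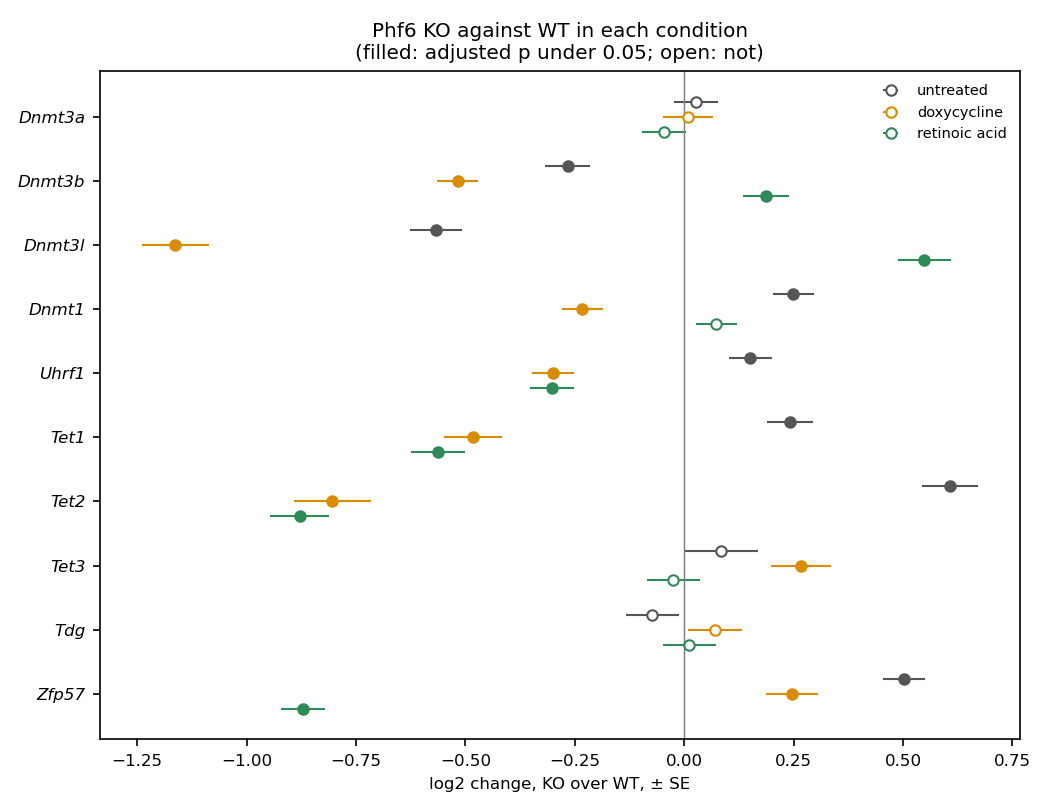
Log2 change ± SE of KO over WT for each gene without treatment (grey), with doxycycline (orange) and with retinoic acid (green), with open points for values not past the threshold. Tet1, Tet2 and Uhrf1 lie right of 0 without treatment and left of it with both treatments, and Dnmt3b and Dnmt3l lie left of 0 except with retinoic acid.

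The effect of the KO on these genes changed with the condition. On counts Tet1, Tet2 and Uhrf1 were called higher in untreated KO cells and lower in KO cells with either treatment. Dnmt3b and Dnmt3l were called lower without treatment and with doxycycline and higher with retinoic acid. The untreated calls of Uhrf1 and Tet1, the doxycycline call of Tet1 and the retinoic acid call of Dnmt3b were lost under alternatives given above. The untreated Dnmt3b call was lost in log2(TPM + 1), as given below. The test of the difference itself called 7 of 10 for doxycycline, all of them lower in KO, where 19.2% of all genes tested were called, 9.11% higher and 10% lower. For retinoic acid it called 6 of 10, 2 higher and 4 lower, where 17.7% of all genes tested were called, 7.31% higher and 10.3% lower. Dnmt3a, Tet3 and Tdg were called in neither. For doxycycline the Dnmt3b difference of -0.25 ± 0.07 (edgeR adjusted p = 0.01) and the Zfp57 difference of -0.26 ± 0.08 (edgeR adjusted p = 0.019) were less firm. The Dnmt3b call was lost without replicate 1 of untreated WT (-0.23) or replicate 2 of untreated KO (-0.23) and with upper-quartile scaling (-0.19). The Zfp57 call was lost without the same libraries (-0.24 and -0.24), without replicate 2 of WT (-0.21) or replicate 1 of KO doxycycline (-0.21), and with upper-quartile scaling (-0.19). The Uhrf1 differences were -0.45 ± 0.07 (edgeR adjusted p = 1.6e-05) for doxycycline and -0.45 ± 0.07 (edgeR adjusted p = 2e-05) for retinoic acid, and the Dnmt3l difference for doxycycline was -0.60 ± 0.10 (edgeR adjusted p = 4.5e-05). Pluripotency genes differed in the same comparisons. Of 14, 10 had a lower and 2 a higher response to doxycycline in KO, and 11 a lower response to retinoic acid. Their part in the differences of the methylation genes was not tested.

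Offsets for transcript length also moved calls of Dnmt3a. Its weighted length was 4364 and 5082 bases in KO and 4471 and 4335 in WT doxycycline libraries, 5368 and 5443 in KO and 4366 and 4413 in WT retinoic acid libraries, and 3654 and 3761 in KO and 3592 and 3798 in WT untreated libraries. Retinoic acid KO libraries were the longest and untreated libraries of both genotypes the shortest. The annotation lists 18 Dnmt3a transcripts, of which 3 have 5424 to 9685 bases and 15 have 369 to 4014. With length offsets, KO against WT in retinoic acid became -0.35 and was called (edgeR adjusted p = 0.0019), and the difference between the responses became -0.36 (edgeR adjusted p = 0.032). The retinoic acid change itself became -0.93 in KO and -0.56 in WT cells with these offsets. In TPM, Dnmt3a had 34.2 and 33.4 in KO and 41.8 and 42.9 in WT retinoic acid libraries, and 45.6 and 44.9 in KO and 45.5 and 41.5 in WT untreated libraries. The members other than Tet1 and Dnmt3a kept their length within relatively narrower limits. Examples are 10159 to 10633 bases for Tet3 and 1640 to 1664 for Dnmt3l over the 12 libraries. Tdg and Tet2 were less steady, with 2135 to 2659 bases for Tdg and 6244 to 7236 for Tet2.

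Levels of different genes were compared in TPM only. In untreated cells Zfp57 led with 804 and 841 TPM in KO and 566 and 566 TPM in WT libraries, followed by Uhrf1 with 224 and 222 in KO and 205 and 189.6 in WT. Tet3 was the lowest, with 2.65 and 2.64 in KO and 2.53 and 2.29 in WT. With doxycycline Uhrf1 led, with 173 and 176 TPM in KO and 205 and 212 in WT libraries, and Tet3 was the lowest in WT with 4.70 and 4.80 TPM. In KO doxycycline libraries the 2 lowest genes were Tet2 with 5.46 and 6.34 TPM and Tet3 with 5.45 and 6.33 TPM, which overlap. With retinoic acid Zfp57 led again, with 279 and 262 TPM in KO and 507 and 482 in WT libraries, and Tet3 was the lowest with 10.7 and 10.4 in KO and 10.6 and 10.2 in WT.

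On the scale of log2(TPM + 1) several changes were smaller. The retinoic acid change in WT cells was -0.30 for Dnmt3b, -0.55 for Dnmt3l, -0.76 for Uhrf1 and -0.04 for Dnmt3a, and that of Dnmt3a was no longer past the threshold (limma adjusted p = 0.66). The Tdg change with doxycycline was -0.10 in KO (limma adjusted p = 0.38) and -0.16 in WT cells (limma adjusted p = 0.16). Dnmt1 changed with doxycycline by -0.23 in KO and by 0.22 in WT cells, the WT value now past the threshold (limma adjusted p = 0.0066). In KO against WT, the calls of Dnmt3b without treatment (-0.19, limma adjusted p = 0.05), Uhrf1 without treatment (0.18, limma adjusted p = 0.069), Tet1 with doxycycline (-0.001, limma adjusted p = 1) and Tet3 with doxycycline (0.26, limma adjusted p = 0.088) were lost. Dnmt3a with retinoic acid gained a call in KO against WT (-0.32, limma adjusted p = 0.01).

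Within a gene, the order of the 6 groups in mean TPM showed which conditions stood apart. For Tet2 the order was untreated KO, untreated WT, WT retinoic acid, KO retinoic acid, WT doxycycline and KO doxycycline, and no neighbours overlapped. Zfp57 had the same order except that KO doxycycline stood above WT doxycycline, again without overlap. Tet1 had the order of Zfp57, with the doxycycline groups overlapping. Dnmt3b ran from WT doxycycline through KO doxycycline, untreated WT, KO retinoic acid and untreated KO down to WT retinoic acid, with no overlap of neighbours. Dnmt1 ran from KO retinoic acid with a mean of 117 TPM to untreated WT with 87.9 TPM, and 3 of its 5 neighbouring pairs overlapped. Tdg ran from KO retinoic acid with 53.9 TPM to WT doxycycline with 42.8 TPM, and 3 of its neighbouring pairs overlapped as well.

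Of 12 partners of the maintenance enzymes, 3 rose and 7 fell with doxycycline in KO cells, and 3 rose and 9 fell in WT cells, where 31.2% of all genes tested fell in KO and 31.3% in WT. With retinoic acid 2 rose and 9 fell in KO, and 2 rose and 9 fell in WT, where 34.6% of all genes fell in KO and 32.9% in WT. Their median log2 change was -0.45 in KO and -0.53 in WT with doxycycline, and -0.56 in KO and -0.51 in WT with retinoic acid. Over all genes tested it was 0.00 in KO and 0.00 in WT with doxycycline, and 0.10 in KO and 0.12 in WT with retinoic acid. Uhrf2, the paralog of Uhrf1, rose in each, by 0.73 ± 0.06 in KO and 0.75 ± 0.06 in WT with doxycycline and by 1.29 ± 0.05 in KO and 1.25 ± 0.05 in WT with retinoic acid, on the log2 scale. Hells, a chromatin remodeller needed for normal DNA methylation, had the largest fall with doxycycline, -1.19 ± 0.06 in KO and -1.43 ± 0.06 in WT. Between genotypes 3 were higher and 3 lower in untreated KO, 4 were higher and 4 lower with doxycycline, and 2 were higher and 6 lower with retinoic acid. Dppa3, which keeps Uhrf1 off chromatin in oocytes and early embryos, had the lowest value in KO against WT in each condition. With retinoic acid it had 0.0936 and 0.209 CPM in KO and 2.55 and 3.69 CPM in WT libraries (edgeR adjusted p = 7.5e-09), where 3 counts are worth 0.14 to 0.19 CPM. The responses of KO and WT differed for 2 of the 12 with doxycycline and 6 with retinoic acid, beside 19.2% and 17.7% of all genes tested for the same treatments. These counts depend on the test, since DESeq2 called 1 with doxycycline and 2 with retinoic acid, and limma on TPM 1 and 3. Over all genes tested, 30% were called in KO against WT without treatment, 37% with doxycycline and 38.8% with retinoic acid. With doxycycline 31.2% rose and 31.2% fell in KO, and 31.8% rose and 31.3% fell in WT. With retinoic acid 40.9% rose and 34.6% fell in KO, and 41% rose and 32.9% fell in WT. All these shares apply to the counts of the lists that follow as well.

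Of 12 partners of de novo methylation and imprint keeping, 11 were tested, since Dnmt3c stayed under the filter. With doxycycline 2 rose and 5 fell in KO and 2 rose and 6 fell in WT, and with retinoic acid 2 rose and 7 fell in KO and 1 rose and 7 fell in WT. Trim28, the corepressor that Zfp57 recruits, had 999 and 1110.0 CPM in KO and 1191 and 1195 CPM in WT doxycycline libraries, 556 and 556 in KO and 664 and 672 in WT retinoic acid libraries, and 2510.0 and 2629 in KO and 2288 and 2307 in WT untreated libraries. It fell with both treatments, as Zfp57 did. Prdm14, a repressor of de novo methyltransferase genes in mouse embryonic stem cells, had 0.515 and 0.784 CPM in KO and 7.28 and 7.75 CPM in WT retinoic acid libraries, against 18.8 and 20.5 in KO and 22.5 and 22.5 in WT untreated libraries. KO against WT in retinoic acid, Prdm14 changed by -3.54 ± 0.21 (edgeR adjusted p = 1.1e-13). In doxycycline Prdm14 had 0.783 and 1.02 CPM in KO and 1.41 and 1.57 in WT libraries. Between genotypes 1 was higher and 4 lower in untreated KO, 5 were lower with doxycycline, and 1 was higher and 5 lower with retinoic acid, and the responses differed for 2 genes with doxycycline and 3 with retinoic acid.

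Of 8 readers of methylated CpG, 6 rose and 1 fell with doxycycline in KO and 5 rose and 1 fell in WT, and 5 rose and 2 fell with retinoic acid in KO and 6 rose and 2 fell in WT. Over all genes, 31.2% rose with doxycycline in KO and 31.8% in WT, and 40.9% with retinoic acid in KO and 41% in WT. Mbd2 rose with doxycycline by log2 changes of 1.32 ± 0.09 in KO and 1.82 ± 0.09 in WT. Zbtb4 rose with retinoic acid by log2 changes of 2.63 ± 0.15 in KO and 2.69 ± 0.15 in WT. Mbd3, a member of the family that binds methylated CpG poorly, fell with retinoic acid, with log2 changes of -0.96 ± 0.06 in KO and -0.87 ± 0.06 in WT. Between genotypes 2 were lower in untreated KO, 2 were higher and 3 lower with doxycycline, and 2 were lower with retinoic acid. The 2 of 8 called without treatment and the 2 of 8 called with retinoic acid stand beside 30% and 38.8% of all genes. The unadjusted edgeR p was under 0.05 for 4 of the 8 without treatment and for 2 with retinoic acid. The responses differed for 2 readers with doxycycline. With retinoic acid edgeR called 0, and 2 had an unadjusted p under 0.05, while DESeq2 called 0 and limma on TPM 0.

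Partners of oxidation and repair, 19 genes, were split. With doxycycline 6 rose and 6 fell in KO and 8 rose and 5 fell in WT, and with retinoic acid 8 rose and 9 fell in KO and 7 rose and 8 fell in WT. Of all genes tested, 62.3% were called with doxycycline in KO and 63% in WT, and 75.5% with retinoic acid in KO and 73.9% in WT. Gadd45g, a stress gene of a family linked to demethylation, rose with doxycycline by log2 changes of 5.45 ± 0.27 in KO and 5.95 ± 0.22 in WT. Hmces, which binds abasic sites, fell, with log2 changes of -1.76 ± 0.09 in WT with doxycycline and, with retinoic acid, -2.10 ± 0.09 in KO and -2.12 ± 0.09 in WT. Between genotypes 7 were lower in untreated KO, 4 were higher and 9 lower with doxycycline, and 4 were higher and 8 lower with retinoic acid, and Apobec2 had the lowest KO value in each. It had 0.608 and 0.837 CPM in KO and 3.94 and 4.45 CPM in WT retinoic acid libraries. The responses differed for 3 of these genes with doxycycline and 7 with retinoic acid.

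Enzymes that supply the methyl donor S-adenosylmethionine or clear its product were tested for 9 of 10 genes. With doxycycline 4 rose and 5 fell in KO and 4 rose and 5 fell in WT, and with retinoic acid 2 rose and 6 fell in KO and 3 rose and 5 fell in WT. Shmt1, of the folate cycle, fell with retinoic acid, with log2 changes of -2.55 ± 0.06 in KO and -1.99 ± 0.06 in WT, and Shmt2 fell with doxycycline, with log2 changes of -1.40 ± 0.05 in KO and -1.25 ± 0.05 in WT. Mat2a, which makes the donor, was lower in KO than in WT cells with doxycycline, with a log2 change of -0.43 ± 0.06 (edgeR adjusted p = 4e-07). Between genotypes 1 was higher and 2 lower in untreated KO, 1 was higher and 4 lower with doxycycline, and 2 were higher and 3 lower with retinoic acid. The responses differed for 3 with doxycycline and 3 with retinoic acid.

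Germline genes that promoter methylation is known to keep silent were described beside the enzymes. Of 17, 16 were tested, and with retinoic acid 12 rose and 2 fell in KO and 12 rose and 2 fell in WT, beside 40.9% of all genes that rose in KO and 41% in WT. With doxycycline 5 rose and 6 fell in KO and 5 rose and 8 fell in WT. Their median log2 change was 0.94 in KO and 0.70 in WT with retinoic acid, beside 0.10 and 0.12 over all genes tested. Dazl, a germ cell RNA-binding protein, had 113 and 113 CPM in KO and 57.8 and 66.0 CPM in WT retinoic acid libraries, 7.53 and 8.22 in KO and 1.97 and 2.72 in WT doxycycline libraries, and 10.7 and 12.4 in KO and 5.76 and 6.72 in WT untreated libraries. KO was above WT in each condition, by 0.87 ± 0.07 with retinoic acid, 1.78 ± 0.18 with doxycycline and 0.89 ± 0.14 without treatment, with edgeR adjusted p of 3.8e-11, 3.7e-09 and 7.2e-06. Rpl10l, a retrogene of a ribosomal protein, went the other way, with 13.0 and 13.9 CPM in KO and 39.8 and 44.7 in WT doxycycline libraries and 62.1 and 64.5 in KO and 149 and 157 in WT untreated libraries. Between genotypes 1 was higher and 7 lower in untreated KO, 7 were higher and 2 lower with doxycycline, and 2 were higher and 4 lower with retinoic acid, and the responses differed for 6 with doxycycline and 3 with retinoic acid. The 6 of 16 called between genotypes with retinoic acid stand beside 38.8% of all genes, the 9 called with doxycycline beside 37% and the 8 called without treatment beside 30%. DNA methylation itself was not measured in these libraries.

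The pattern of each gene over the 12 libraries was set beside that of 10784 other genes, all averaging 5 CPM or more, as Pearson r of log2(CPM + 1). The libraries form 6 groups of like samples, so these values describe the shared pattern of the groups. Among the genes most like Dnmt3a were Rarg and Grtp1 (Pearson r of 1.00 and 1.00), and those most like Dnmt3b were Kcnj12, Nav2 and Mapk1ip1l (Pearson r of 0.99, 0.98 and 0.98). Dnmt3l was most like Enpp3, Trim2 and Cdk1 (Pearson r of 0.99, 0.99 and 0.97), and Dnmt1 like Tjp3, Ppm1b and Zfp180 (Pearson r of 0.94, 0.93 and 0.93). The closest to Uhrf1 were Smg5, Mrps18b and Ddx56 (Pearson r of 1.00, 0.99 and 0.99). For Tet1 they were Lrrc2, Slc17a9 and Rest (Pearson r of 1.00, 1.00 and 0.99), for Tet2 Palb2, Etv5 and Pecam1 (Pearson r of 0.99 each), and for Tet3 Morc4, Abl1 and Clip2 (Pearson r of 0.99 each). Tdg was closest to Rexo4, Stmn3 and Banf1 (Pearson r of 0.98, 0.97 and 0.97), and Zfp57 to Ngfr, Upp1 and Jam2 (Pearson r of 1.00, 0.99 and 0.99). Among the members, Zfp57 had r of 0.98 with both Dnmt3a and Tet2, and Dnmt3a and Tet2 had r of 0.96, while Tet3 and Tdg had r of -0.94. Dnmt3b ran against Dnmt3a, with r of -0.74.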

How the data were processed

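RNA-seq of 12 libraries in 6 groups of 2 was used. The authors deposited RSEM tables per gene with expected counts (estimated, not always whole), TPM, FPKM (not used here) and abundance-weighted transcript lengths, per the file headers. STAR 2.5.3a, RSEM 1.3.0 and DESeq2 1.18.1 and the mm10 build are named in the submitters' processing notes. Neither annotation release nor strand setting is given in the sources used here.

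The deposited expected counts were rounded to whole numbers and filtered with edgeR's filterByExpr (minimum count 10), which left 17884 genes. TMM factors ran between 0.901 and 1.16. The main test was edgeR's quasi-likelihood F test (edgeR 4.0.16, R 4.3.3) over all 12 libraries, with 6 residual degrees of freedom, 9 contrasts and Benjamini-Hochberg adjustment over all genes tested at 0.05. The SE of a log2 change is its size over the square root of F. Samples were grouped by their titles and treatment labels. Libraries of a group differed more than counting noise, and the common biological coefficient of variation was 4.38%. Where genes are compared with one another the TPM values that the authors deposited were used, and limma 3.58.1 tested log2(TPM + 1) as an alternative chosen after seeing the data, with a pseudocount of 1. Other alternatives were DESeq2 1.42.0, other scalings, no filter, length offsets, a replicate block, fits on the compared groups alone and leaving out each library. The scripts were tested on simulated counts. The members and lists were chosen with earlier results of these data known. Of each partner list the text names the called genes with the largest and smallest log2 change, and of each member the 3 genes of highest r, of which 1 is not reported here. DNA sequences are from RefSeq, and protein sequences were not used here.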

Additional observations from a re-analysis of the deposited data

Results flagged for a closer look

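The response of KO cells differed from that of WT cells by the edgeR test of the difference itself for 13 of the 20 pairs of member and treatment. Of all genes tested, 19.2% were called for doxycycline and 17.7% for retinoic acid. Both tests use the same untreated libraries, so the values of a gene for both treatments are not separate evidence. Each difference below is KO minus WT on the log2 scale. With doxycycline the differences were -0.48 for Dnmt1, -0.25 for Dnmt3b, -0.60 for Dnmt3l, -0.45 for Uhrf1, -0.72 for Tet1, -1.41 for Tet2 and -0.26 for Zfp57. With retinoic acid they were 0.45 for Dnmt3b, 1.12 for Dnmt3l, -0.45 for Uhrf1, -0.80 for Tet1, -1.49 for Tet2 and -1.37 for Zfp57.

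The weighted transcript length of Tet1 was shorter in KO than in WT libraries in every condition. With length offsets its difference for doxycycline was -0.68 (edgeR adjusted p = 0.0043) and still called. In log2(TPM + 1) it was -0.69. Dnmt3b and Dnmt3l had negative differences with doxycycline and positive ones with retinoic acid. The doxycycline calls of Dnmt3b and Zfp57 were lost under some alternatives, as given above.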

How the results depend on the processing

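Of the 90 log2 changes of members, 71 were called, and 63 of these kept direction and call under every other setting chosen from the start, 64 with each library left out and 54 with limma on TPM included. DESeq2, relative log expression factors, the replicate block and leaving out chromosome 1 genes changed none of the 90. Limma on TPM turned the retinoic acid change round for Dnmt1 (0.14 in KO, 0.30 in WT), Tdg (0.02 in KO, 0.15 in WT) and Dnmt3b (0.08 in KO), and moved all genes called in untreated KO against WT to 3328.

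All genes called for the difference in doxycycline response came to 2130.0 by DESeq2, 1988 with length offsets and 1812 by limma on TPM, and for retinoic acid to 1867, 1761 and 1983. The cause was not tested. Upper-quartile scaling moved the share of higher calls to 60.6% against 48.3% in KO over WT with doxycycline, and to 61.9% against 47.6% for the difference in doxycycline response. Limma on TPM moved it with retinoic acid to 76.9% against 54.2% in KO and 80.2% against 55.5% in WT.

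With each library left out, all genes called ran over 3700.0 to 5724 (untreated), 5403 to 6500.0 (doxycycline) and 4990.0 to 7301 (retinoic acid) for KO over WT, 10019 to 11330.0 in KO and 10166 to 11585 in WT for doxycycline, 12520.0 to 13833 in KO and 12164 to 13560.0 in WT for retinoic acid, and 2533 to 3491 (doxycycline) and 2231 to 3553 (retinoic acid) for the differences. Members called ran over 5 to 7 (untreated), 7 to 8 (doxycycline) and 5 to 6 (retinoic acid) for KO over WT, 9 to 10 in KO and 8 to 9 in WT for doxycycline, 9 in KO and 10 in WT for retinoic acid, and 5 to 7 (doxycycline) and 6 to 7 (retinoic acid) for the differences. Same-numbered replicates did not deviate together (r of -0.11 to 0.08), and with the replicate block 8 members were called in KO over WT with doxycycline; a crossed replicate block, chosen after seeing the data, called 8 members and 6603 genes. Dnmt1 gained a call for doxycycline in WT without either KO doxycycline library (0.10 for each), and for the difference in retinoic acid response in the fit on the compared groups alone (-0.16).

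With 2 libraries a group the spread rests on 6 residual degrees of freedom pooled over groups, and a lone library is assumed to vary like the other groups.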
